A study of Mus musculus with 5 samples.

Results

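A set of 10 genes was examined in mouse aorta. Their products carry calcium into a smooth muscle cell, release it from the sarcoplasmic reticulum, pump it back, or control these steps. The genes are Cacna1c, Cacnb2, Ryr2, Itpr1, Atp2a2, Atp2b1, Pln, Stim1, Slc8a1 and Trpc6. They were chosen by gene symbol, and every probe set that the array's annotation pairs with 1 of these symbols was taken. That gave 17 probe sets for 8 of the 10 genes, among 22626 probe sets and 12393 named genes in all. In the annotation used here no probe set is named for Itpr1, an inositol trisphosphate receptor, or for Atp2b1, a calcium pump of the cell surface, and these genes were not analysed here.

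The groups were homozygous Lepr db/db mice and heterozygous Lepr db/+ mice of strain BKS.Cg-m +/+ Lepr db/J. All were males of the same colony, 16 to 20 weeks old and on regular chow, and the controls carry 1 copy of the mutation too. Homozygotes lack the signalling form of the leptin receptor in every cell and become obese and diabetic, so the comparison is of a whole-body model and not of a change made in the vessel. An array held RNA of 6 pooled aortas with adventitia and surrounding fat removed, and 3 db/db pools (replicates 1, 2 and 3) were set against 2 db/+ pools (replicates 2 and 3). The spread between arrays is therefore a spread between pools, which averages over single mice.

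Contraction of the vessel wall starts when calcium enters through voltage-gated channels of the cell surface and leaves the sarcoplasmic reticulum through ryanodine and inositol trisphosphate receptors. Relaxation follows when pumps of the reticulum and the surface, together with a sodium-calcium exchanger, clear calcium from the cytosol. Ryr2, Pln, Atp2a2, Cacna1c and Slc8a1 are also core genes of heart muscle, which uses the same parts for each heartbeat. Heart tissue can stay attached to a dissected aorta, so cardiac markers are given beside these genes.

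Signals are MAS5 intensities, in which each array is scaled to a common trimmed mean, and array medians lay between 59.0 and 61.45. Smooth muscle genes had strong signals on every array, with Myh11, its myosin heavy chain, at 3366.5 to 3916.4. Ucp1, the uncoupling protein of brown fat, had signals from 2136.2 to 4334.5, so fat transcripts were measured on all 5 arrays. Macrophage, endothelial and white adipocyte markers were lower on all db/db arrays than on all db/+ arrays at 12 of 14, 8 of 14 and 6 of 10 tested genes, against 12.0% of named genes, and their part in the values below was not tested. The summed signal of the 10 white adipocyte genes was 8222, 13344 and 10868 on db/db replicates 1, 2 and 3 and 13286 and 12526 on db/+ replicates 2 and 3. For 9 brown adipocyte genes it was 5842, 11435 and 10170 in db/db and 7362 and 8444 in db/+, in the same order. Cardiac markers stood apart on 1 array. The summed signal of 20 cardiac genes was 6508 on db/db replicate 2, against 1341 and 1659 on db/db replicates 1 and 3 and 3223 and 2176 on db/+ replicates 2 and 3. Of these 20 genes 17 had their highest signal on db/db replicate 2 and 12 their lowest on db/db replicate 1, and Myh7 alone had a mean under the filter on low signals. Myh6, the cardiac myosin heavy chain, had 468.5 on db/db replicate 2 and 12.6 to 105.8 on the other arrays.

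A probe set was tested where its mean signal over the 5 arrays exceeded 40.6, the 40th percentile. This kept 11 of the 17 probe sets, which belong to Cacna1c, Ryr2, Atp2a2, Pln and Stim1. No probe set of these genes passed the threshold of 0.05 on the adjusted p (limma, Benjamini-Hochberg over all 13574 probe sets tested), where 13 probe sets, or 0.0958%, passed, all of them lower in db/db. At an unadjusted limma p under 0.05 there were 2 of the 11, both of Atp2a2 and both higher in db/db, against 8.16% of all probe sets, 3.97% higher and 4.19% lower. The db/db and db/+ arrays did not overlap at 4 of the 11, all of Atp2a2 and all higher in db/db, against 25.0% of all probe sets, 13.0% higher and 12.0% lower.

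**Figure D1:**
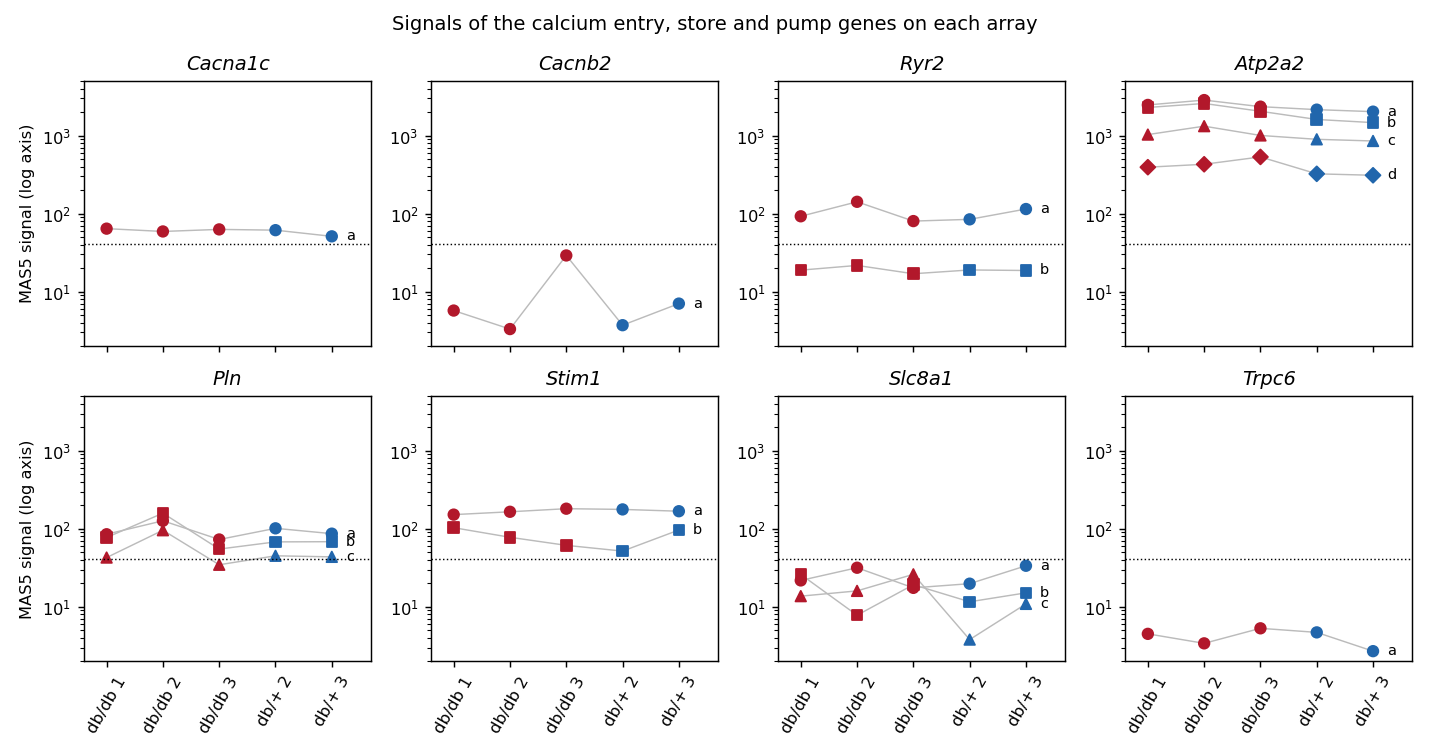
MAS5 signal (log axis) of each probe set of the 8 measured genes on the 5 arrays, red for db/db and blue for db/+, with lines joining the points of 1 probe set and letters a to d ordering the probe sets of a gene by mean signal. The dotted line is the filter at 40.6, and all 4 probe sets of Atp2a2 are higher on the 3 db/db arrays than on both db/+ arrays.

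Atp2a2 encodes SERCA2, the pump that returns calcium to the sarcoplasmic reticulum, and it was measured by 4 probe sets that share a gene and are not replicates of each other. The probe set with the highest mean, 1427250_at (a in the plots), had signals of 2468.6, 2848.7 and 2346.9 in db/db and 2148.4 and 2024.8 in db/+. The lowest db/db pool lay above the highest db/+ pool. Means were 2555 ± 262 (SD, n = 3) and 2087 ± 87.4 (SD, n = 2), a ratio of 1.22 and a log2 difference of 0.29 (SE 0.16, 95% interval −0.08 to 0.66, limma adjusted p = 0.72), where the log2 difference is db/db minus db/+ on log2(signal + 16).

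The probe set 1416551_at (b) showed the greatest difference of the 4. Its signals were 2290.9, 2578.3 and 2047.6 in db/db against 1607.5 and 1464.9 in db/+, with no overlap. The log2 difference 0.58 (SE 0.17, 95% interval 0.19 to 0.96). It did not pass (limma adjusted p = 0.37, unadjusted 0.0081), and it ranked 300 by p among the 13574 probe sets tested.

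The other 2 probe sets of Atp2a2 gave the same order of the groups. At 1452363_a_at (c) signals were 1028.7, 1318.7 and 1002.9 in db/db and 894.7 and 851.7 in db/+, a log2 difference of 0.34 (SE 0.18, limma adjusted p = 0.68). At 1427251_at (d) they were 392.8, 428.3 and 531.9 against 322.9 and 309.4, a log2 difference of 0.48 (SE 0.18, limma adjusted p = 0.52). The db/db pool with the highest signal was replicate 2 at probe sets a, b and c, but replicate 3 at d, so the 4 probe sets did not order the db/db pools alike. Which transcripts of Atp2a2 each one reads was not examined here.

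On db/db replicates 1 and 3 the cardiac sums were below both db/+ arrays, while all 4 probe sets of Atp2a2 were above both. Replicate 2 of db/db had the highest cardiac sum and also the highest brown adipocyte sum. Without it, the log2 differences of probe sets a to d were 0.21, 0.49, 0.22 and 0.51. Smooth muscle markers had a summed signal of 53237, 49493 and 42839 in db/db and 39851 and 44273 in db/+. Of these 16 markers 15 had a positive log2 difference, against 4449 of all 8261 named genes tested, with medians of 0.19 and 0.02. The arrays of the markers did not overlap at 6 of the 16, all higher in db/db, against 13.6% of named genes, and none passed the test. The part of heart tissue, of brown fat and of smooth muscle content in the Atp2a2 values was not tested. In pooled tissue more smooth muscle cells and more RNA per cell cannot be told apart.

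Pln encodes phospholamban, the small membrane protein that holds SERCA2 back until it is phosphorylated, and its 3 probe sets overlapped between the groups. At 1450952_at (a) signals were 85.2, 126.8 and 73.0 in db/db and 101.5 and 86.7 in db/+. The db/+ pools lay inside the range of the db/db pools. Means were 95 ± 28.2 (SD, n = 3) and 94.1 ± 10.5 (SD, n = 2), a log2 difference of −0.015 (SE 0.22, 95% interval −0.52 to 0.49, limma adjusted p = 0.99).

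At 1460332_at (b) signals of Pln were 77.4, 158.7 and 55.0 in db/db, and 68.0 and 68.4 in db/+. At 1423359_at (c) they were 42.8, 95.9 and 34.6, and 45.1 and 43.7. Both had 1 high db/db pool, replicate 2, and 1 low one, replicate 3, around nearly equal db/+ pools. The log2 differences were 0.32 (SE 0.33, limma adjusted p = 0.87) and 0.20 (SE 0.31, limma adjusted p = 0.91), and without db/db replicate 2 they were −0.048 and −0.15, with probe set a at −0.21.

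Ryr2 encodes the cardiac ryanodine receptor, a release channel of the sarcoplasmic reticulum that smooth muscle also uses. Its probe set above the filter, 1450123_at, had signals of 92.2, 141.4 and 80.0 in db/db and 84.2 and 114.2 in db/+. The groups overlapped, and the highest and the lowest pool were again db/db replicates 2 and 3. The log2 difference was 0.045 (SE 0.24, 95% interval −0.50 to 0.59, limma adjusted p = 0.98), and −0.16 without db/db replicate 2. The other probe set of Ryr2, 1421126_at, had 16.9 to 21.6 on the 5 arrays, under the filter.

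The 4 tested probe sets of Pln and Ryr2 thus all had their highest signal on db/db replicate 2, as 19.5% of all tested probe sets did, and their lowest on db/db replicate 3, as 16.3% did. Of these 4 probe sets 3 belong to 1 gene, Pln. Relative to the db/+ mean, db/db replicate 2 was higher by 0.38 to 1.05 on the log2 scale at these probe sets and by 1.12 for the mean of the cardiac markers. At db/db replicate 1 the likeness did not hold. The cardiac mean was −1 there, and the probe sets of Pln and Ryr2 lay between −0.12 and 0.15. On db/+ replicates 2 and 3 the cardiac mean was 0.245 and −0.245, while Ryr2 ran the opposite way, with −0.189 and 0.189. Pln had 0.097 and −0.097 (a), −0.003 and 0.003 (b), and 0.017 and −0.017 (c) on these 2 arrays. The part of heart tissue and of brown fat in the Pln and Ryr2 values was not tested. Sln, which encodes sarcolipin, a relative of phospholamban found in atria, was picked after its values were seen. It had 157.8 on db/db replicate 2, 72.0 on db/+ replicate 2 and 37.7, 7.9 and 4.4 on the others. A second Sln probe set, under the filter, was highest on db/db replicate 1, with 21.5 there and 3.6 to 10.5 on the other arrays.

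**Figure D2:**
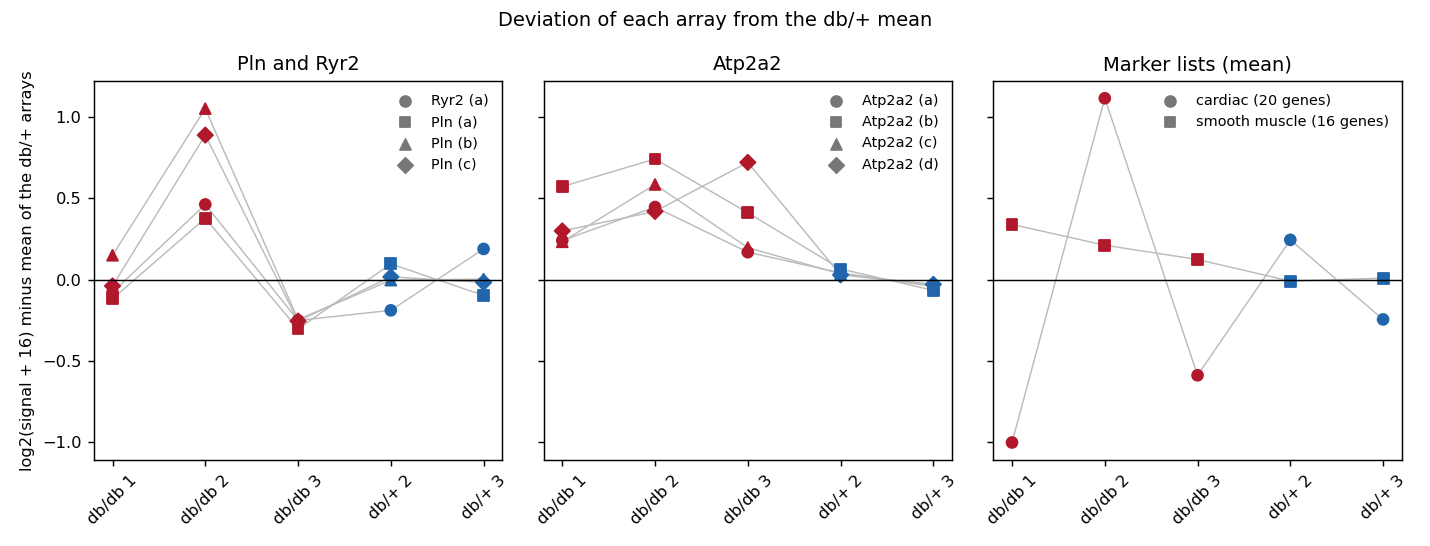
Difference of log2(signal + 16) on each array from the mean of the 2 db/+ arrays, for the tested probe sets of Pln and Ryr2 (left), the 4 of Atp2a2 (middle) and the means of the cardiac and smooth muscle marker lists (right), red for db/db and blue for db/+. Pln, Ryr2 and the cardiac mean peak on db/db replicate 2, as do probe sets a, b and c of Atp2a2. All 4 probe sets of Atp2a2 are above the db/+ arrays on all 3 db/db arrays.

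The promoters of Pln and Ryr2 are shown because these genes shared their high and low arrays. They are the 250 bases before the start site in the RefSeq promoter table of build GRCm38.p6, at chr10:53337436-53337685 on the plus strand for Pln and chr13:12106946-12107195 on the minus strand for Ryr2, written 5′ to 3′ along the gene. Capitals mark every match, on either strand, to 5 motifs. These are the E-box of basic helix-loop-helix factors, with the letters CANNTG, the TATA box, searched as TATAAA, the CCAAT box, searched by those 5 letters, and the CArG box of serum response factor and the MEF2 site, by name.
Pln: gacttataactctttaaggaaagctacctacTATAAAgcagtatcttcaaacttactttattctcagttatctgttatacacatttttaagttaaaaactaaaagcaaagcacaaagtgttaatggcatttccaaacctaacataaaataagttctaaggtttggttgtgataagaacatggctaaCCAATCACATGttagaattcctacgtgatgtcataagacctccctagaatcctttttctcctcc
Ryr2: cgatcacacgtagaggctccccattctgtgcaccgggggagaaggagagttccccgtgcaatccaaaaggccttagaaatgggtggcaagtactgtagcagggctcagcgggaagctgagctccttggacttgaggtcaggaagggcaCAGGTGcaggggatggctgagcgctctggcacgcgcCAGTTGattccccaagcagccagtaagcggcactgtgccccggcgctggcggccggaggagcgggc
The Pln window held 1 match to the TATA box letters, starting 219 bases before the start site, 1 CCAAT box and, directly after it, 1 E-box. The Ryr2 window held 2 E-boxes. Neither had letters matching a CArG box or a MEF2 site. Among 32841 such windows of all genes 66.2% held an E-box, 33.9% a CCAAT box, 12.4% a TATA box, 2.92% a MEF2 site and 1.47% a CArG box. The base composition differed, with 32.8% G and C in Pln and 63.2% in Ryr2. The same table had windows for 8 of the 10 genes, and none for Atp2a2 or Itpr1. Of the other members, Trpc6 had a CArG box match in its window. These matches are descriptions of letters only.

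Cacna1c encodes the pore of the L-type calcium channel, the main voltage-gated entry route of arterial smooth muscle. Its probe set 1421297_a_at had 64, 58.9 and 62.6 in db/db and 61.2 and 51.0 in db/+. The groups overlapped, with 1 lower db/+ pool. Means were 61.8 ± 2.64 (SD, n = 3) and 56.1 ± 7.21 (SD, n = 2), a log2 difference of 0.11 (SE 0.16, 95% interval −0.24 to 0.47, limma adjusted p = 0.90).

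Cacnb2 encodes an auxiliary beta subunit that brings this channel to the membrane. Its only probe set, 1452476_at, lay under the filter, with 5.7, 3.3 and 29.0 in db/db and 3.7 and 7.0 in db/+. Replicate 3 of db/db was high and the rest were near the lowest signals of the array. Without the filter the log2 difference was 0.32 (SE 0.36, limma adjusted p = 0.90).

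Stim1 encodes the sensor that reports an empty store to calcium channels of the cell surface. Its brighter probe set, 1448320_at (a), had 152.1, 165.4 and 181.2 in db/db and 177.4 and 168.2 in db/+. The ranges overlapped, and the log2 difference was −0.054 (SE 0.16, 95% interval −0.41 to 0.30, limma adjusted p = 0.96). At 1436945_x_at (b), a type of probe set that can also read other transcripts, signals were 103.4, 77.9 and 61.4 against 51.8 and 96.6, a log2 difference of 0.13 (SE 0.26, limma adjusted p = 0.94). The db/db pools ran in the opposite order at these probe sets.

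Trpc6 encodes a receptor-operated cation channel opened by diacylglycerol. Its probe set 1449431_at had 4.5, 3.4 and 5.3 in db/db and 4.7 and 2.7 in db/+, close to the bottom of the scale on every array. Without the filter the log2 difference was 0.051 (SE 0.14, limma adjusted p = 0.97).

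Slc8a1 encodes the sodium-calcium exchanger NCX1, and its 3 probe sets were also under the filter. Signals at 1420210_at (a) were 21.8, 31.7 and 17.5 in db/db and 19.8 and 33.6 in db/+, and at 1440201_at (b) 26.0, 7.8 and 19.2 against 11.6 and 15.1. At 1425817_a_at (c) they were 13.7, 16.0 and 26.1 against 3.8 and 10.9, where the groups did not overlap. Without the filter this last probe set had a log2 difference of 0.57 (SE 0.22, limma adjusted p = 0.68), and the other 2 had −0.10 and 0.16.

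**Figure D3:**
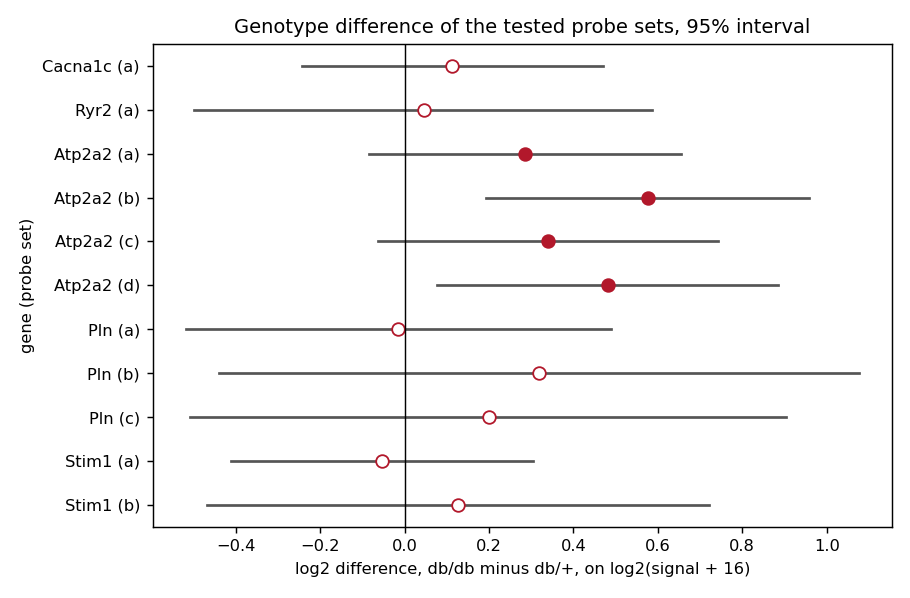
Log2 difference (db/db minus db/+, on log2(signal + 16)) with its 95% interval from limma for the 11 tested probe sets, lettered as in the plot of signals. Filled points mark probe sets whose db/db and db/+ arrays do not overlap, which are the 4 of Atp2a2, and the intervals of probe sets b and d of Atp2a2 lie above 0.

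By gene, with the probe set of highest mean standing for each, 3 of the 5 tested members had a positive log2 difference. Of all 8261 named genes tested 4449 did. The medians were 0.045 for the members and 0.02 for all named genes. The 95% intervals bound what these arrays can exclude. For Stim1 the bounds were −0.41 and 0.30 at probe set a and −0.47 and 0.72 at b, and for Cacna1c −0.24 and 0.47. For Pln they were −0.52 and 0.49 at a, −0.44 and 1.08 at b, and −0.51 and 0.90 at c. With 3 arrays against 2, an exact permutation test cannot give a one-sided p below 0.1.

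A wider list of calcium handling genes was read in the same fit. Of 95 genes 71 had a probe set and 37 were above the filter. None passed the adjusted threshold, where 0.121% of named genes did, and 5 had an unadjusted limma p under 0.05, all higher in db/db, where 8.63% of named genes did in either direction. Positive log2 differences numbered 26 of 37, with a median of 0.14, against 4449 of 8261 named genes and a median of 0.02. Arrays did not overlap at 10 genes higher in db/db (27% of the 37) and 4 lower (10.8%), against 13.6% and 12.0% of named genes. These are counts without a test of the list, and smooth muscle markers leaned the same way.

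Among voltage-gated channel subunits 5 of 21 measured genes were above the filter. All 5 had positive log2 differences, as did 4449 of all 8261 named genes tested. Cacna1d, a second L-type pore, had 108.4, 74.2 and 73.7 in db/db and 40.6 and 47.2 in db/+, without overlap. Its log2 difference was 0.75 (SE 0.19, limma adjusted p = 0.31), while a second probe set lay under the filter with overlapping groups. Cacna1g, a T-type pore, and Cacna1f, an L-type pore best known from the retina, had 0.45 and 0.20 (limma adjusted p = 0.64 and 0.86).

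Release channels and their partners held the most genes with separate groups, 4 higher and 2 lower of 7 tested. Of all named genes 13.6% were separate and higher and 12.0% separate and lower. The 4 rest on the probe set of highest mean, and for Itpr2 other probe sets went the other way, as given below. Fkbp1a, added after its values were seen, is another of the 4. Its other probe sets above the filter had −0.074, −0.096 and 0.17, with overlapping groups. The 2 separate and lower genes, also named after their values were seen, were Itpr3 and Fkbp1b. Their log2 differences were −0.45 and −0.30 (limma adjusted p = 0.66 and 0.67). Asph, whose transcripts encode an aspartate hydroxylase and the reticulum proteins junctin and junctate, had 511.0, 352.3 and 429.0 in db/db and 287.6 and 255.7 in db/+. Its log2 difference was 0.62 (SE 0.19, limma adjusted p = 0.41). Another probe set of Asph, 1426015_s_at, had 292.7, 285.5 and 283.3 against 164.8 and 151.7, a log2 difference of 0.80 (SE 0.15, limma adjusted p = 0.14). The other 2 above the filter had 0.14 and 0.32 with overlapping groups, so probe sets of Asph differed in size but not in sign.

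Mrvi1 encodes IRAG, through which nitric oxide and cGMP restrain the inositol trisphosphate receptor of smooth muscle. It had 336.4, 366.1 and 323.1 in db/db and 279.2 and 231.3 in db/+, without overlap, and a log2 difference of 0.40 (SE 0.16, limma adjusted p = 0.57). Itpr2, an inositol trisphosphate receptor, had 0.37 (SE 0.16, limma adjusted p = 0.61) at its brightest probe set. Its other 3 above the filter had −0.17, −0.67 and −0.72, with separate groups at the last 2, so no direction can be given for Itpr2.

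Store and binding proteins had 6 positive and 1 negative log2 difference among 7 tested, where 4449 of all 8261 named genes tested were positive. Casq1, the calsequestrin of skeletal muscle that binds calcium in the reticulum, had 520.0, 515.9 and 414.8 in db/db and 300.2 on both db/+ arrays. Its log2 difference was 0.65 (SE 0.17, limma adjusted p = 0.30), while skeletal muscle markers had summed signals of 406, 657 and 361 in db/db and 1212 and 456 in db/+, 6 of the 11 with means under the filter. Camk2g, a calmodulin-dependent kinase subunit of smooth muscle, had 0.39 and 0.24 at its 2 probe sets, with separate groups at both.

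S100a1, a calcium-binding protein that acts on SERCA2 and ryanodine receptors in muscle, went the other way at both its probe sets. The brighter had 684.6, 882.1 and 790.1 in db/db and 971.2 and 1008.2 in db/+, a log2 difference of −0.33 (SE 0.17, limma adjusted p = 0.67). The other, 1417421_at, had 138.9, 177.1 and 155.1 against 235.8 and 213.9, a log2 difference of −0.48 (SE 0.17, limma adjusted p = 0.47). No db/db pool reached a db/+ pool at either.

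In the remaining lists no gene had an unadjusted limma p under 0.05. Of 8 store-operated, TRP and P2X genes 4 had positive and 4 negative log2 differences. Trpc1, a TRP channel, had −0.57, Trpv2 had 0.27 and the ATP-gated channel P2rx1 had 0.26. A second P2rx1 probe set, under the filter, went the other way, with 5.9, 3.5 and 6.0 in db/db and 23.6 on both db/+ arrays. Of 7 other pumps and exchangers, Atp2c1, a Golgi calcium pump, Slc8b1, the mitochondrial sodium-calcium exchanger, and Slc24a3, a potassium-dependent exchanger, had −0.26, −0.35 and 0.21. The SERCA genes beside Atp2a2 lay near 0, with Atp2a3 at 0.04 (SE 0.16) and Atp2a1 at −0.017 (SE 0.21). These 2 were picked after their values were seen, and their difference from Atp2a2 was not tested. The mitochondrial genes Letm1, Vdac1 and Smdt1 lay between −0.045 and 0.13.

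**Figure D4:**
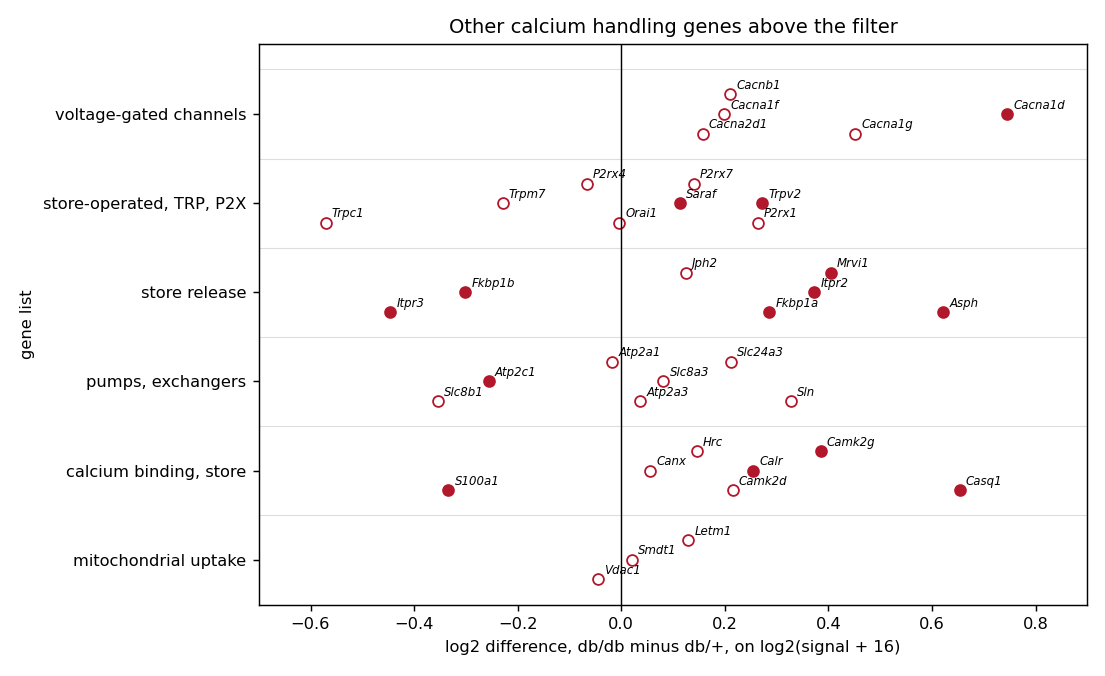
Log2 difference (db/db minus db/+, on log2(signal + 16)) of the 37 further calcium handling genes above the filter, by list, each by its probe set of highest mean. Filled points mark genes whose db/db and db/+ arrays do not overlap, 10 of them to the right of 0 and 4 to the left.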

How the data were processed

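The deposited values are linear intensities, and the submitters' processing notes name MAS5, with no version, as the tool with which the authors made them. Labelled cRNA came from 10 µg of RNA. MAS5 brings the trimmed means of all arrays together, here to between 150.049 and 150.053, so no further normalization was applied. The genome build is not given in the sources used here. Of 22690 probe sets 64 controls were left out. Of the rest 20380 had 1 gene symbol, 691 several and 1555 none, and those with several or none were not named. The main test was limma 3.58.1 (R 4.3.3) on log2(signal + 16), two-sided and without covariates, for the 13574 probe sets above the 40th percentile of mean signal. It had 3 residual and 5.39 prior degrees of freedom, and p-values were adjusted by Benjamini-Hochberg with a threshold of 0.05. Differences on this scale understate those of low signals. The number of arrays limits the precision.

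On data simulated for this comparison, with 13574 probe sets in each of 5 runs, the test found 97.6% of 4-fold and 52% of 2-fold changes. Changes under 2-fold, such as those of all tested members, were not simulated. The simulated noise was independent between probe sets and held no differences in tissue content between pools. The members and lists were chosen with earlier results of these data known. Named are all members, up to 3 genes per further list by smallest unadjusted p, and Myh6, Myl2, Actc1, Myh11, Acta2 and Ucp1 as markers, and genes outside this rule are marked in the text. Signals lay between 52.4 and 364.9 for Myl2, 161.5 and 653 for Actc1, and 6378.6 and 9146.7 for Acta2. A gene was represented by its probe set of highest mean. Alternatives were pseudocounts of 1 and 64, no filter or the 60th percentile, quantile normalization, median centring, trend with robust eBayes, array weights, a block by replicate number, leaving out each array, a threshold of 0.1, averaging the probe sets of a gene and, chosen after seeing the data, a filter on mean log2 signal.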

Additional observations from a re-analysis of the deposited data

How the results depend on the processing

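No member probe set and no further calcium gene passed the adjusted threshold under any alternative run, and none passed at a threshold of 0.1. Over all 13574 probe sets 13 passed. That number was 3 with a pseudocount of 1, 37 with 64, 1 with no filter, 35 at the 60th percentile, 21 with median centring, 41 with trend and robust eBayes, 48 with array weights, 49 at a threshold of 0.1, and 1 to 17 with an array left out (1 without db/+ replicate 2, 2 without db/+ replicate 3, 6 without db/db replicate 3). The median log2 difference of all probe sets was 0.016, and moved to 0.007 with quantile normalization and −0.021 with median centring. Replicate numbers 2 and 3 occur in both groups, and the main test did not take them as pairs. Deviations from the group means correlated at 0.11 for number 2 and 0 for number 3. They also correlated at 0.11 for db/db replicate 1 with db/+ replicate 3. With 2 db/+ arrays the deviations of one mirror those of the other, so these correlations cannot decide whether the numbers are pairs. With the replicate block 22 passed, and the log2 differences of Pln (a) and Stim1 (a and b) turned to 0.037, 0.003 and −0.035. No db/+ array carries number 1, so the block takes db/db replicate 1 out of the log2 difference. Leaving that array out gave the same log2 differences. The 4 probe sets of Atp2a2 kept a positive log2 difference in every setting, the brightest between 0.21 and 0.34, and their mean was 0.42 with a gene's probe sets averaged. With array weights Ryr2 had −0.014, and with a gene's probe sets averaged Pln had 0.17 and Stim1 0.036. With an array left out, log2 differences ranged from −0.16 to 0.23 for Ryr2, −0.21 to 0.13, −0.048 to 0.60 and −0.15 to 0.43 for Pln (a, b and c), and −0.11 to 0.003 and −0.24 to 0.49 for Stim1 (a and b). Apart from the block equalling the omission of db/db replicate 1, the cause of these turns was not tested.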
